A study of Rattus norvegicus with 2 samples.

Results

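Fibrosis is the deposition of extracellular matrix between the cardiomyocytes of a stressed heart. Fibroblasts secrete the fibrillar collagens and fibronectin, inhibitors of metalloproteinases slow the breakdown of this matrix, and matricellular proteins regulate its assembly and the signals that reach the cells in it. In hypertensive heart disease these genes are widely used as markers of matrix remodeling. Expression of 7 such genes was examined in left ventricular (LV) tissue of rats: the fibrillar collagen genes Col1a1 (ENSRNOG00000003897), Col1a2 (ENSRNOG00000011292) and Col3a1 (ENSRNOG00000003357), the fibronectin gene Fn1 (ENSRNOG00000014288), the metalloproteinase inhibitor gene Timp1 (ENSRNOG00000010208), and the genes of the matricellular proteins Ccn2 (ENSRNOG00000015036, formerly Ctgf) and Sparc (ENSRNOG00000012840). They were chosen by name as known fibrosis genes, and all 7 had a spot among the 20174 genes of the array.

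The study compared male Dahl salt-sensitive (DS) rats, which develop hypertension and then heart failure on a high-salt diet. The control group [NS (−)] received 0.3% NaCl and the heart failure (HF) group [HS (−)] 8% NaCl, both without chaetocin. The treatment group [HS (ch+)] received 8% NaCl and 0.25 mg/kg of chaetocin. The drug was given intraperitoneally between the ages of 6 and 13 weeks, in 2 injections per week. Chaetocin inhibits the histone methyltransferase SU(VAR)3-9, but the paper cites a report that its specificity may not be high. Whether rats without chaetocin were injected with its solvent is not given in the sources used here, and the group on normal salt with chaetocin was not analysed here. RNA of 3 rats, chosen at random and sampled at the stage of heart failure, was mixed in each group, so that 1 pool stands for a group. Whole LV tissue contains cardiomyocytes, fibroblasts, vascular cells and immune cells, and a change in the number of cells of a type cannot be told apart from a change in RNA per cell.

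The pools were read on 2 two-color arrays with 1 spot per gene. Array 1 held HS (−) in the red dye Cy5 and NS (−) in the green dye Cy3. Array 2 held HS (−) in Cy5 and HS (ch+) in Cy3. The dyes were not exchanged, so an effect of the dye on a probe cannot be told apart from a difference between HS (−) and either of the other pools. HS (ch+) and NS (−) carried the same dye. No replicate exists for any ratio, and no p-value was calculated. Both ratios contain the HS (−) pool and are therefore not independent of each other.

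Signals are given in intensity units after subtraction of the blank spots. The Cy3 signals were multiplied by 0.890 on array 1 and 0.770 on array 2, which sets the median ratio of each array to 1. Signals were not adjusted between the arrays, and those of HS (−) were higher on array 2 by a median of 0.15 on the log2 scale. HS (−) was labelled with the same dye on both arrays, so that its repeated reading gave a technical SD. This SD was 0.16 on the log2 scale, a 1.12-fold difference, over 4127 genes that had a ratio on each array and an HS (−) signal not under 100 on either. The SD was 0.17 for the 2138 genes with signals from 100 to 300 and 0.15 for the 770 genes above 1000. It contains no differences between rats. As it comes from Cy5 readings alone, it does not measure the error of Cy3. It served as a yardstick for all ratios and was not widened for the product of both. All 7 genes were among the 4127, and 0 of them had a saturated spot. The minimum of 100 was applied to HS (−) alone, so genes under it in HS (−) are missing from the shares and ranks given below. Fn1 and Timp1 were under 100 in NS (−), with signals of 76.0 and 86.0. The lowest of their signals, that of Fn1 in NS (−), lay 43.0 SDs of the blank spots above the blank mean.

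Expression of 6 of the 7 genes was higher in HS (−) than in NS (−) by more than 1 technical SD, against 30.8% of the 4127 genes. Expression was lower by more than that for 0 of the 7, against 37.3% of the 4127. Of the 6 genes that were higher, Col1a1, Col1a2, Fn1, Timp1 and Ccn2 were so by more than 1 technical SD under each processing run. The share of all genes ranged from 20.3% with 50 added to each signal to 65.4% without background subtraction. Col3a1 fell short of 1 technical SD in several settings. Its log2 ratio was -0.062 with the local background subtracted, 0.12 with normexp and loess, 0.12 with 50 added, and 0.13 with centering within blocks. The ratio exceeded 2 for Fn1, Timp1 and Ccn2, 3 of the 7 genes, against 4.17% of the 4127 genes. Timp1 and Ccn2 were lower in HS (ch+) than in HS (−), with ratios under 0.714, the inverse of 1.4 (2 of 7 genes, against 4.60% of the 4127). The collagen type I genes differed by less than 1 technical SD, and Col3a1, Fn1 and Sparc were higher by more than that, 3 of 7 genes against 31.1% of the 4127. The HS (ch+)/HS (−) ratio of Sparc was below 1, at 0.913 and 0.812, under other background corrections. For HS (−)/NS (−), the 7 genes had a median of 1.94 and the 4127 genes a median of 0.978. For HS (ch+)/HS (−), the medians were 1.05 and 1.02.

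**Figure D1:**
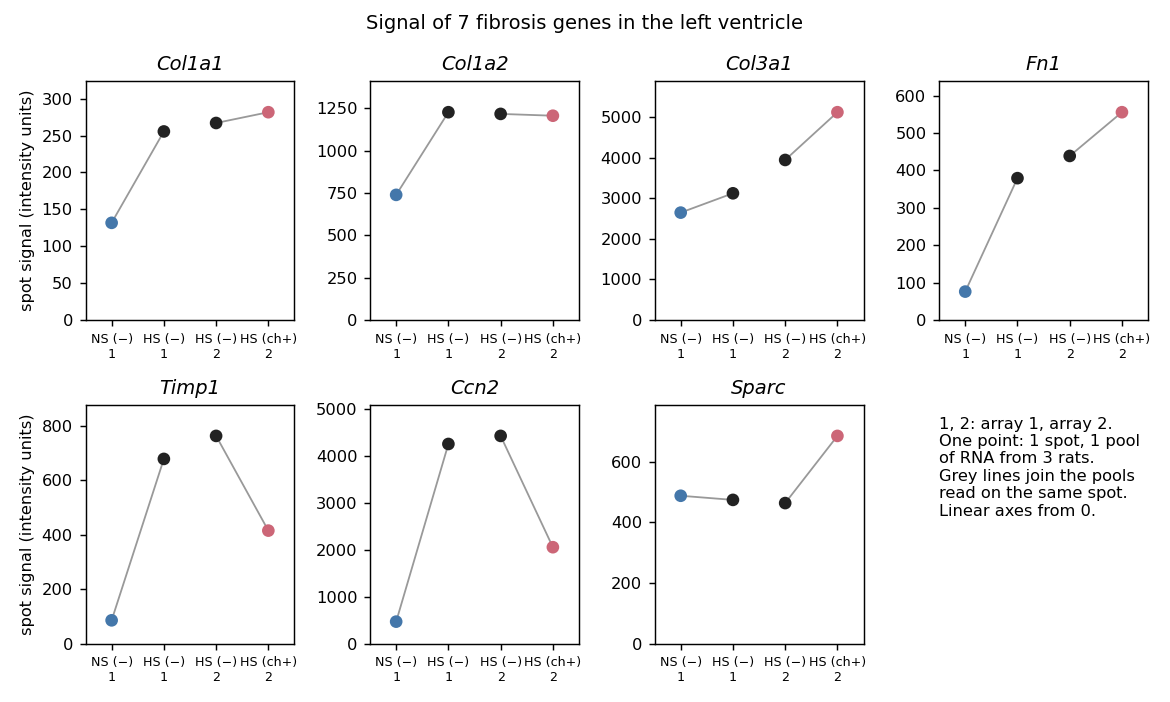
Blank-subtracted signal of each of the 7 genes, in intensity units on linear axes that start at 0, for NS (−) and HS (−) on array 1 and HS (−) and HS (ch+) on array 2. Each point is 1 spot read with 1 pool, and lines join pools read on the same spot. HS (ch+) lies far below both HS (−) readings for Timp1 and Ccn2. For Col1a2 it lies just below them as plotted, without removal of the median difference between the arrays. With the HS (−) reading of array 1 in the ratio, the log2 HS (ch+)/HS (−) ratio of Col1a2 was -0.19, beyond the technical SD.

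The leading genes by the size of both ratios were Timp1 and Ccn2. Timp1 encodes a secreted protein that binds and inhibits matrix metalloproteinases. Its signal was 86.0 in NS (−), 679 and 764 in the readings of HS (−), and 416 in HS (ch+). The HS (−)/NS (−) ratio was thus 7.89 (log2 2.98 ± 0.16, technical SD), the rank 38 from the top among the 4127 genes. The HS (ch+)/HS (−) ratio was 0.544 (log2 -0.88), the rank 60 from the bottom. HS (ch+) lay below both readings of HS (−) and above NS (−), with an HS (ch+)/NS (−) ratio of 4.30.

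Ccn2 encodes connective tissue growth factor, a matricellular protein induced by transforming growth factor-β and by mechanical load. Its signal was 471 in NS (−), 4263 and 4435 in HS (−), and 2060 in HS (ch+). The HS (−)/NS (−) ratio of 9.04 (log2 3.18) had rank 31 from the top and was the largest of the 7 genes in the reported processing. With the local background subtracted, Timp1 was higher, at 7.42 against 6.02 for Ccn2. The HS (ch+)/HS (−) ratio was 0.464 (log2 -1.11), rank 44 from the bottom. As for Timp1, HS (ch+) stood between the other pools, with an HS (ch+)/NS (−) ratio of 4.20. For Ccn2, the HS (ch+)/HS (−) ratio differed between ways of background correction. The local background recorded beside the Ccn2 spot made up 52.9% and 60.6% of the HS (−) intensity on the arrays, against 7.82% and 8.15% for Timp1. When it was subtracted in place of the blanks, the HS (ch+)/HS (−) ratio of Ccn2 was 0.841. With normexp and loess it was 0.696 and without background subtraction 0.375, and thus below 1 in each of these settings. The corresponding range for Timp1 over all settings was 0.459 to 0.659, and its HS (−)/NS (−) ratio was 5.16 when 50 was added to each signal.

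The pairs of ratios of Timp1 and Ccn2 lay at a distance of 0.30 on the log2 scale. Among the 4127 genes, 4 lay closer to Timp1 than Ccn2 did, and 3 lay closer to Ccn2 than Timp1 did. The sequences upstream of their annotated starts are shown because both genes were lower in HS (ch+) than in HS (−), together with that of Sparc, which in the reported processing was not. RefSeq promoters on GRCr8 were found by symbol for 4 of the 7 genes. The 250 bases before the start are printed 5′ to 3′ on the strand of the gene, the minus strand for all of them. Capitals mark matches on either strand to the TATA box TATAAA, the CCAAT box (its letters are its name), the TEAD element GGAATG, the SMAD element CAGAC, the AP-1 element TGANTCA or its variant TGAGTAA. The variant was added after the sequences had been seen. The regions are chrX:3771123-3771372 for Timp1, chr1:22624615-22624864 for Ccn2 and chr10:40038817-40039066 for Sparc.
Timp1: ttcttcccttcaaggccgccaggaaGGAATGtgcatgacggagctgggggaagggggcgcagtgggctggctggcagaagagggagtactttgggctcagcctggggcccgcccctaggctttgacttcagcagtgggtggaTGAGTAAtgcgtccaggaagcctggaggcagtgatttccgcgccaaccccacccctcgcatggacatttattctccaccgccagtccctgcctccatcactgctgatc
Ccn2: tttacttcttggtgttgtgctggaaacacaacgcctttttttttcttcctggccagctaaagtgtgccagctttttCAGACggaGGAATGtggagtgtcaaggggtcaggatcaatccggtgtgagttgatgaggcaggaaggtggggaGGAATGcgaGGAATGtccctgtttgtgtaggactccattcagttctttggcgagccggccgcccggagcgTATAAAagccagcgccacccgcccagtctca
Sparc: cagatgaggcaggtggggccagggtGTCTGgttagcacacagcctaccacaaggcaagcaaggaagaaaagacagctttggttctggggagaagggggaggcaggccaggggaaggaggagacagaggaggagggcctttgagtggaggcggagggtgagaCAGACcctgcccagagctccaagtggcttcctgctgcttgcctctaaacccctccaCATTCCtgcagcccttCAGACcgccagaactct

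The Ccn2 sequence held 3 copies of GGAATG, which begin at positions -166, -101 and -92 from the start, 1 copy of CAGAC at -174 and a TATA box at -31. The Timp1 sequence held 1 GGAATG at -225 and the AP-1 variant at -108. The Sparc sequence held 1 GGAATG, read on the opposite strand, at -33 and 3 copies of CAGAC. No further match to these motifs was found in the printed windows. The Col1a2 window, which is not printed, held no GGAATG. It held TATAAA at -170 and, read on the opposite strand, CCAAT at -221 and CAGAC at -156 and -23. Among the 33469 RefSeq promoters of the same length, GGAATG was found in 12.1%, CAGAC in 42.9%, TATAAA in 12.9%, CCAAT in 34.0%, TGANTCA in 6.34% and TGAGTAA in 2.38%. Such matches describe the letters of the sequence, and binding was not measured here.

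Fn1 encodes fibronectin, the glycoprotein that fibroblasts assemble into fibrils on which collagen is laid down. Its signal was 76.0 in NS (−), 379 and 439 in HS (−), and 556 in HS (ch+). It was therefore lowest in the control pool and highest with chaetocin. The HS (−)/NS (−) ratio was 4.99 (log2 2.32 ± 0.16, technical SD), rank 48 from the top of the 4127 genes. It was 3.04 with normexp and loess and 3.29 when 50 was added to each signal. The HS (ch+)/HS (−) ratio was 1.27 (log2 0.34), which exceeded 1 by 2.13 technical SDs, and ranged from 1.02 without background subtraction to 1.71 with subtraction of the local background. Fn1 had the highest HS (ch+)/NS (−) ratio of the 7 genes in the reported processing, 6.32, rank 17 from the top. With normexp and loess it was 4.16, against 4.22 for Ccn2. Unlike Timp1 and Ccn2, Fn1 had an HS (ch+)/HS (−) ratio above 1 in each of the settings run.

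**Figure D2:**
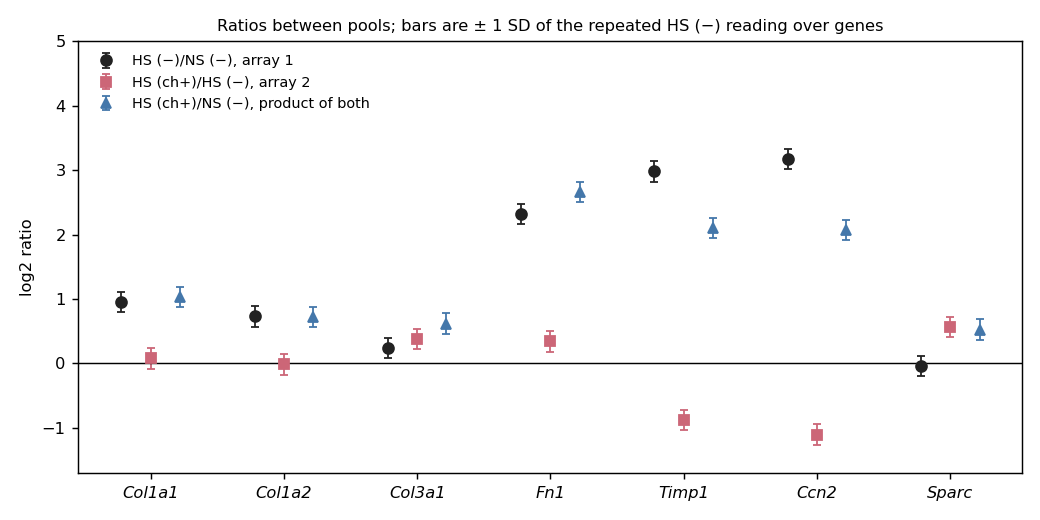
Log2 ratios of the 7 genes for HS (−)/NS (−) on array 1 and HS (ch+)/HS (−) on array 2. HS (ch+)/NS (−) is the product of both. Bars are ± 1 SD of the repeated HS (−) reading in Cy5 over 4127 genes (0.16), for the product too. This SD does not cover Cy3 or the rats. The HS (ch+)/HS (−) points of Timp1 and Ccn2 lie at -0.88 and -1.11, and those of the other 5 genes between -0.01 and 0.56.

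Col1a1 and Col1a2 encode the chains of collagen type I, the main collagen of scar and interstitial matrix, and were read on separate spots in different blocks of the array. Col1a1 had a signal of 132 in NS (−), 256 and 267 in HS (−), and 282 in HS (ch+). The HS (−)/NS (−) ratio was 1.94 (log2 0.96), less than 1 technical SD below the limit of 2, and the HS (ch+)/HS (−) ratio was 1.05 (log2 0.08). Col1a2 had a signal of 739 in NS (−), 1228 and 1218 in HS (−), and 1207 in HS (ch+). Its HS (−)/NS (−) ratio was 1.66 (log2 0.73) and its HS (ch+)/HS (−) ratio was 0.991 (log2 -0.01). For both genes the pools of rats on high salt were close together and the NS (−) pool was lower. In the reported processing, the chaetocin ratios of both genes differed from 1 by less than 1 technical SD. Across settings they lay between 0.874 and 1.19 for Col1a1 and between 0.798 and 1.29 for Col1a2. The pair of ratios of Col1a2 was the nearest to that of Col1a1 among the other 6 genes, at a distance of 0.24 on the log2 scale. Of the 4127 genes, however, 19 lay closer to Col1a1 than Col1a2 did, and 97 lay closer to Col1a2 than Col1a1 did.

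Col3a1 encodes collagen type III, which forms fibrils together with type I. Its signal was 2649 in NS (−), 3126 and 3948 in HS (−), and 5126 in HS (ch+). The HS (−)/NS (−) ratio was 1.18 (log2 0.24), 1.49 technical SDs above 1, and the readings of HS (−) differed from each other by 0.19 on the log2 scale after removal of the median difference between the arrays. The HS (−)/NS (−) ratio was 0.958 with subtraction of the local background, so that its direction is not settled. The HS (ch+)/HS (−) ratio was 1.30 (log2 0.38) and stayed above 1 in the other settings, from 1.04 to 1.54.

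Sparc encodes osteonectin, a matricellular protein that binds collagen and takes part in its processing into fibrils. Its signal was 487 in NS (−), 474 and 463 in HS (−), and 685 in HS (ch+). The NS (−) and HS (−) pools differed by less than the technical SD, with a ratio of 0.972 (log2 -0.04), and the HS (ch+) pool was above both. Sparc was the 1 gene of the 7 with an HS (ch+)/HS (−) ratio over 1.4, 1.48 (log2 0.56), against 5.86% of the 4127 genes. With the local background subtracted, 2 genes passed this limit, Col3a1 and Fn1, against 30.0% of the 4127. With 50 added to each signal 3 passed, against 14.3%. With normexp and loess 0 passed, against 10.4%, and without background subtraction 0 passed, against 0.63%. The ratio of Sparc itself differed between ways of background correction. The local background made up 69.8% of the Sparc intensity in NS (−) and 73.6% in HS (ch+), the highest shares among the 7 genes, against 41.5% and 53.8% in HS (−). With its subtraction the HS (−)/NS (−) ratio was 1.80 and the HS (ch+)/HS (−) ratio 0.913, and with normexp and loess they were 1.76 and 0.812. The order of HS (−) and the other pools for Sparc therefore differed between ways of background correction.

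Across both arrays, 3 genes had a higher level in HS (ch+) than in HS (−) by more than 1 technical SD, Col3a1, Fn1 and Sparc, against 31.1% of the 4127 genes. The count was 2 with normexp and loess, without Sparc, against 33.8%. Without background subtraction it was 1, Sparc alone, against 6.11%, and with the local background subtracted it was 4, without Sparc, against 59.1%. With 50 added to each signal the count was 5, against 58.9%. The 2 genes that were lower by more than 1 technical SD, Timp1 and Ccn2, compare with 24.1%. Both were lower by more than that under each processing run. The share of all genes ranged from 7.15% with 50 added to each signal to 63.8% without background subtraction. Without background subtraction, 4 of the 7 genes were lower by more than 1 technical SD. The product of both ratios sets HS (ch+) against NS (−), which differ in diet and in chaetocin. By this product all 7 genes were higher in HS (ch+) than in NS (−) by more than 1 technical SD, against 23.2% of the 4127 genes. Another 27.6% of the 4127 were lower by more than that. The technical SD is that of the repeated HS (−) reading and does not measure the error of a product. The median ratio was 2.05, with a range from 1.44 for Sparc to 6.32 for Fn1, against a median of 0.990 for the 4127 genes. The ratio exceeded 2 for 4 of the 7 genes, Col1a1, Fn1, Timp1 and Ccn2, against 2.59% of the 4127 genes. Col1a1 fell short of 2 in 4 of the 8 alternatives, the lowest value being 1.88 without background subtraction. In order of this ratio, Fn1 was followed by Timp1 and Ccn2, with log2 ratios of 2.10 and 2.07 that did not differ beyond the technical SD, and then by Col1a1 at 1.03, Col1a2 at 0.72, Col3a1 at 0.62 and Sparc at 0.52. Of these, neighbors from Col1a2 to Sparc were within 1 technical SD of each other. HS (ch+) exceeded NS (−) in each of the 56 combinations of a gene with an alternative processing. These included the direct comparison of the Cy3 signals of both arrays, for which the median log2 ratio of the 7 genes was 0.93. They also included the deposited table, which repeats the reported ratios. Under each alternative all 7 genes were higher by more than 1 technical SD. The share of all genes ranged from 23.2% with the deposited table to 48.8% of 4118 genes with the local background subtracted.

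**Figure D3:**
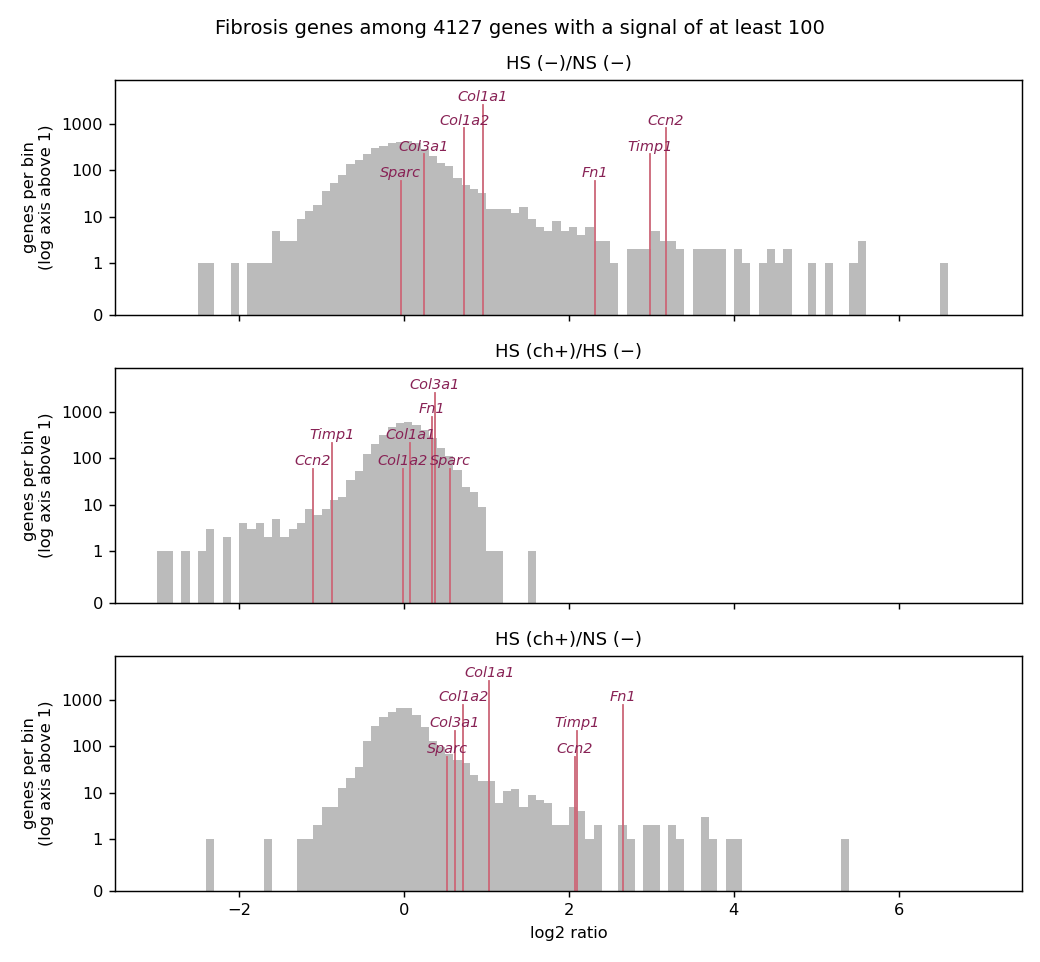
Distribution of the log2 ratios of the 4127 genes for each pair of pools (bars, number of genes per bin of 0.1, on an axis that is logarithmic above 1), with the 7 genes as labelled lines. In HS (−)/NS (−), Fn1, Timp1 and Ccn2 lie in the right tail, in HS (ch+)/HS (−) Timp1 and Ccn2 lie in the left tail, and in HS (ch+)/NS (−) all 7 lie to the right of the median.

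Of 42 further matrix genes considered, 2 could be tied to a spot, because only the gene table of the study pairs IDs of the array with names. Col15a1 (ENSRNOG00000039197) encodes the basement membrane collagen type XV. Its signal was 377 in NS (−), 165 and 176 in HS (−), and 346 in HS (ch+), with ratios of 0.436 for HS (−)/NS (−) and 1.96 for HS (ch+)/HS (−). Wfdc1 (ENSRNOG00000015904), a secreted protein with a WAP domain, had signals of 773, 260, 335 and 533 in the same order and ratios of 0.337 and 1.59. Both genes come from the table that the study selected on these arrays for low expression in HS (−) and higher expression with chaetocin, so their direction is given by that selection.

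Of the 20 markers of cell types considered, 2 could be tied to a spot in the same way. The cardiomyocyte gene Myh6 (1 of 5 markers) had an intensity of 65535 in NS (−), which is saturated, and blank-subtracted signals of 11788 and 15969 in HS (−) and 25413 in HS (ch+). The antigen-presenting cell gene Cd74 (1 of 4 markers of macrophages and antigen-presenting cells) had signals of 3867 in NS (−), 1404 and 2044 in HS (−), and 3787 in HS (ch+). Both markers come from the same table of the study, so that their direction, too, is given by its selection. Markers of fibroblasts, endothelial cells and smooth muscle cells were not analysed here. The part of cell composition in the ratios of the fibrosis genes was not tested. The genes with the pair of ratios most like the median of the 7, among the 4127, were 5 genes without a name in the sources used here. The nearest of them, ENSRNOG00000010362, had ratios of 1.98 and 1.04 at a distance of 0.03 on the log2 scale from the median, followed by ENSRNOG00000030021 with 1.91 and 0.991.

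**Figure D4:**
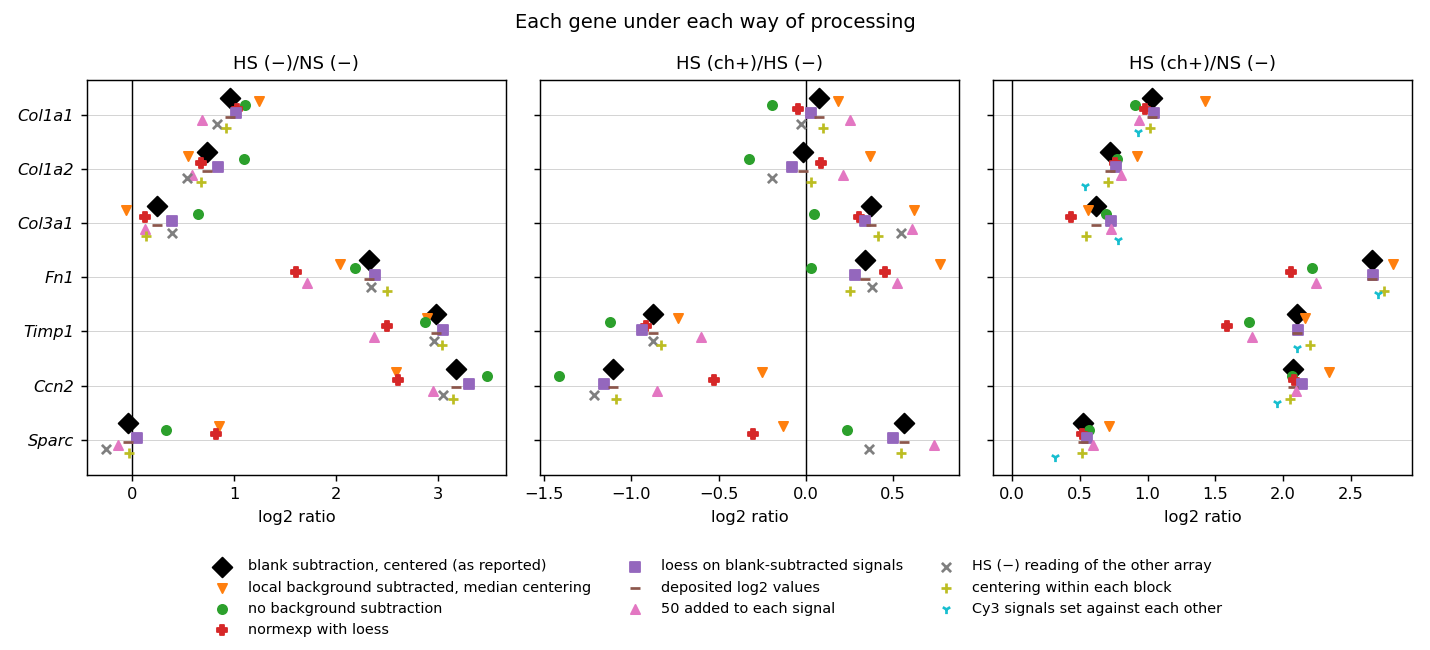
Log2 ratios of each gene under the reported processing (black diamonds) and the alternatives (colored symbols), with 1 panel for each pair of pools. Symbols of Timp1 and Ccn2 stay right of 0 for HS (−)/NS (−) and left of 0 for HS (ch+)/HS (−), whereas those of Sparc fall on both sides of 0 in both panels; all symbols are right of 0 for HS (ch+)/NS (−).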

How the data were processed

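Groups were taken from the labels of both arrays. Per the file headers, the authors deposited the median intensity of each spot and of its local background for Cy5 and Cy3, without normalization. The authors also deposited log2 ratios of Cy3 to Cy5 in a value table, whose scale, centering and direction were found by setting it against the intensities. The genome build behind the probes is not given in the sources used here. A trimmed mean of 4553 blank spots, without the highest and lowest 5%, was subtracted from each intensity. Spots not above it by 2 SD of the blanks in both colors were left out, and log2 ratios were centered on the median of the genes and 521 quality control spots. The largest gap between these ratios and the deposited table was 2.7e-05, and the deposited columns had medians of 0.0020 and 0.0010. The precision is limited by 1 array for each comparison, and no test was made.

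The genes, lists and motifs were chosen with earlier results of these data known. The text names the 7 fibrosis genes, those genes of the matrix and cell type lists that could be tied to a spot, and the nearest genes to the median pair of ratios of the 7, by Euclidean distance. The symbols of the 7 IDs were given with the gene list. Names of other genes came from the table of 50 genes of the study, and the RefSeq tables held none of the IDs. The calculations were tested on simulated data, in which normexp with loess recovered fewer of the lowered genes. Python 3.11.15, numpy 2.4.6, pandas 2.3.3, matplotlib 3.10.9, R 4.3.3 and limma 3.58.1 were used. Alternatives were subtraction of the local background, no subtraction, normexp (offset 50) with loess, loess on blank-subtracted signals, the deposited table, addition of 50 to each signal, the HS (−) reading of the other array, direct comparison of the Cy3 signals, and centering within each of the 48 blocks.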

Additional observations from a re-analysis of the deposited data

How the results depend on the processing

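Of 168 combinations of a gene, a ratio and an alternative processing, 109 differed from the reported log2 ratio by less than the technical SD of 0.16, 56 differed by more without a called direction turning, and 3 reversed. Of the 109, 21 came from the deposited table, which the reported processing matches to within 2.7e-05, so that they could not differ. The reversed values were those of Col3a1 for HS (−)/NS (−), -0.062 on the log2 scale with the local background subtracted, and of Sparc for HS (ch+)/HS (−), -0.13 with the local background subtracted and -0.30 with normexp and loess. With the local background subtracted, the median log2 HS (−)/NS (−) ratio of the 7 genes was 1.24 instead of 0.96, the median log2 HS (ch+)/NS (−) ratio was 1.43 instead of 1.03, and 1 gene instead of 2 had an HS (ch+)/HS (−) ratio under 0.714, against 4.97% of the 4127 genes, whose HS (−)/NS (−) median shifted by -0.092 and HS (ch+)/HS (−) median by 0.24. Without background subtraction, 5 genes instead of 3 had an HS (−)/NS (−) ratio over 2, against 5.67% of the 4127 genes, 2 genes had an HS (ch+)/HS (−) ratio under 0.714, against 15.3%, and the median log2 HS (ch+)/HS (−) ratio was -0.19 instead of 0.08, while the medians of all 4127 genes moved by 0.32 and -0.27, in the same directions. With 50 added to each signal, the median log2 HS (−)/NS (−) ratio was 0.68 and the median log2 HS (ch+)/HS (−) ratio 0.25, with a shift of 0.19 in the HS (ch+)/HS (−) median of the 4127 genes. For none of these settings was the cause tested. Loess on blank-subtracted signals and the deposited table changed none of the 21 gene ratios by more than the technical SD, normexp with loess moved 8 and reversed 1, and centering within blocks, chosen after seeing the data, changed 1. Other scanner gains were not run, because the files give 1 intensity per color. No paired analysis was possible because each group had 1 pool and no test was made. Local backgrounds reached 73.6%, 60.6% and 56.6% of the intensities of Sparc, Ccn2 and Col3a1, the highest shares among the 7 genes. The part of these backgrounds in the differences between settings was not tested.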
